A study of Homo sapiens with 7 samples.

Results

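The 5 kinases CDK14, CDK15, CDK16, CDK17 and CDK18 were followed through 7 RNA sequencing libraries of a human melanoma line in which the long non-coding RNA GRASLND was knocked down. They were taken from the deposited table by gene symbol and make up 5 of its 21305 genes, and all 5 reached the minimum mean of 10 normalized counts that left 15420 genes for testing. CDK15 was chosen by its measured values in these libraries, because its normalized counts lay higher under both hairpins against GRASLND, and at a similar level under each. Its differences between the groups are therefore given as a description, without a test. CDK14, CDK16, CDK17 and CDK18 were included as its nearest relatives and were tested.

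The cells were 501Mel, an established line of differentiated, pigment-gene expressing melanoma cells. All carried a short hairpin RNA, a transcript that the cell cuts into a small guide RNA, in the lentiviral vector Tet-pLKO-puro, and in all 7 libraries the hairpin had been switched on with doxycycline. In the control group of 3 libraries (shlacZ) the hairpin matched lacZ of bacteria, and the knockdown groups held 2 libraries with the hairpin sh4 and 2 with the hairpin sh8, both against GRASLND. Lines were stable transductants selected with puromycin, with no parental or uninduced group, and the labels do not say which of the target sequences listed in the study belongs to sh4 or sh8.

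The kinases are known as the TAIRE family, after a run of residues in the helix that contacts the cyclin. In CDK14 and CDK15 this run begins with proline and phenylalanine (PFTAIRE), and in CDK16, CDK17 and CDK18 it begins with proline and cysteine (PCTAIRE). Unlike the kinases that drive the cell cycle, CDK14 and CDK16 are activated by Cyclin Y (CCNY), a cyclin held at the plasma membrane, and 14-3-3 proteins bind phosphorylated partners of these complexes. CDK14 with Cyclin Y phosphorylates the WNT co-receptor LRP6, CDK16 is known for roles in vesicle transport and sperm formation, and CDK15 has been described as a kinase of the apoptosis inhibitor survivin (BIRC5).

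The sequence that separates the subfamilies is shown because it is the feature by which CDK15 and its relatives are named. The following are 45 coding bases of each canonical transcript in GENCODE release 44 on hg38, 5′ to 3′, with the second codon of the motif in capitals.
CDK14: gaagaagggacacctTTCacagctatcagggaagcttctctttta
CDK15: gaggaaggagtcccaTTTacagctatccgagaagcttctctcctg
CDK16: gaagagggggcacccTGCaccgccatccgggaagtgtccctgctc
CDK17: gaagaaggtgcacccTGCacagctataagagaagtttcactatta
CDK18: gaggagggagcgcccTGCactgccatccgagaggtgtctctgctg
The capitals read TTC or TTT, both codons for phenylalanine, in CDK14 and CDK15, and TGC, a codon for cysteine, in the other 3 genes. In each gene an exon junction follows base 34 of the stretch shown. For CDK15 the parts lie on the plus strand at chr2:201812529-201812562 in exon 4 and chr2:201822809-201822819 in exon 5. For CDK14, also on the plus strand, they lie at chr7:90790619-90790652 in exon 5 and chr7:90863175-90863185 in exon 6. The stretch of CDK16 lies on the plus strand at chrX:47225069-47225102 in exon 6 and chrX:47225772-47225782 in exon 7, and that of CDK18 on the plus strand at chr1:205526146-205526179 in exon 6 and chr1:205526367-205526377 in exon 7. For CDK17, on the minus strand, the parts are chr12:96298869-96298902 in exon 7 and chr12:96297711-96297721 in exon 8.

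Over whole coding sequences the closest pair was CDK16 and CDK18, with 73.1% identical bases over 1404 aligned positions. CDK15 was 65.0% identical to its PFTAIRE relative CDK14 and 63.7% to 64.4% identical to the 3 PCTAIRE genes, so on this measure it stood about equally far from all of them. Its coding sequence had 435 codons, against 469 in CDK14, 496 in CDK16, 523 in CDK17 and 474 in CDK18. The longest run of bases that the canonical transcript of CDK15 shared with that of a relative was 17, with CDK16, and the longest in the family was 32, between CDK16 and CDK18.

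The genes lie on 5 chromosomes of hg38. CDK15 (ENSG00000138395) spans chr2:201790461-201895550, and GRASLND, on the same chromosome at chr2:6911754-6918734, is 194871727 bases away. CDK14 (ENSG00000058091) spans chr7:90466424-91210590, CDK16 (ENSG00000102225) chrX:47217860-47229997, CDK17 (ENSG00000059758) chr12:96278261-96400480 and CDK18 (ENSG00000117266) chr1:205504596-205532793. CDK14 shares 201 exonic bases with CLDN12 on the same strand, which had a mean of 1592 normalized counts over the 7 libraries, so part of the CDK14 reads may have been shared between these genes. The other 4 kinases share no exonic base with another annotated gene.

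Depth ranged from 13337317 to 22855232 reads per library. GRASLND itself had 309, 330 and 290 normalized counts with shlacZ, 175 and 131 with sh4, and 227 and 163 with sh8. All knockdown libraries lay under all control libraries, as for 11.0% of all tested genes. In limma, GRASLND passed as lower for both hairpins together (log2 difference -0.85) and under sh4 (-1.02). Under sh8 (-0.68) it passed in neither limma nor limma-voom, though its unadjusted p was under 0.05. The call for both hairpins together was kept in 1 of 7 fits with 1 library left out (highest adjusted p 0.182). It was lost without the first shlacZ library (0.0636). Of 7 melanocytic marker genes, 7 were detected, and their summed normalized count was 135575 to 146343 in the control, 51868 to 59737 with sh4, and 101544 to 104484 with sh8. Of the markers of other cells, 1 of 4 keratinocyte, 1 of 5 fibroblast, 1 of 4 immune and 0 of 3 endothelial genes were in the table, with sums of 133 to 206, 5.24 to 16.4, 441 to 675 and 0, and the ranges of the 3 groups overlapped in each list with a value. The first shlacZ library differed from the other control libraries by a root mean square of 0.636 and 0.626 on the log2 scale over the tested genes, against 0.466 between those, so results that depend on it are given without it too. Nothing in the labels states that replicates were separate cultures, so p-values measure the spread between these libraries, which may be technical. Fewer cells of a kind and less RNA per cell cannot be told apart in such bulk samples.

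CDK15 had 11.4, 15.7 and 20.0 normalized counts with shlacZ, 89.2 and 119 with sh4, and 91.0 and 106 with sh8. Every knockdown library lay far above every control library, and the sh8 libraries lay between those of sh4. The mean was 15.7 ± 4.33 (SD, n = 3) with shlacZ, 104 ± 20.8 (SD, n = 2) with sh4 and 98.7 ± 11.0 (SD, n = 2) with sh8. The ratio of means to the control was thus 6.62 under sh4 and 6.29 under sh8. On the scale of log2(normalized count + 1), which understates the change of low genes, the difference from the control was 2.67 under sh4, 2.61 under sh8 and 2.64 for both together, and that between the hairpins was 0.06. These are the values for which CDK15 was chosen. Without the first shlacZ library, the lowest of the 3 for this gene, the difference for both hairpins together was 2.44.

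The control level of CDK15 was low. It rested on 11 to 23 reads per library, against 69 to 159 in the knockdown libraries, and 8.2% of the tested genes had a lower mean in the control. Counting alone would give a coefficient of variation of 24.8% at this control level, close to the 27.6% observed, so the spread among the control libraries was of the size that counting gives. Among the 15420 tested genes, CDK15 ranked 93rd by the difference under sh4 and 21st by that under sh8. By the lower of both differences, which favours genes with a like response to each hairpin, it ranked 9th.

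**Figure D1:**
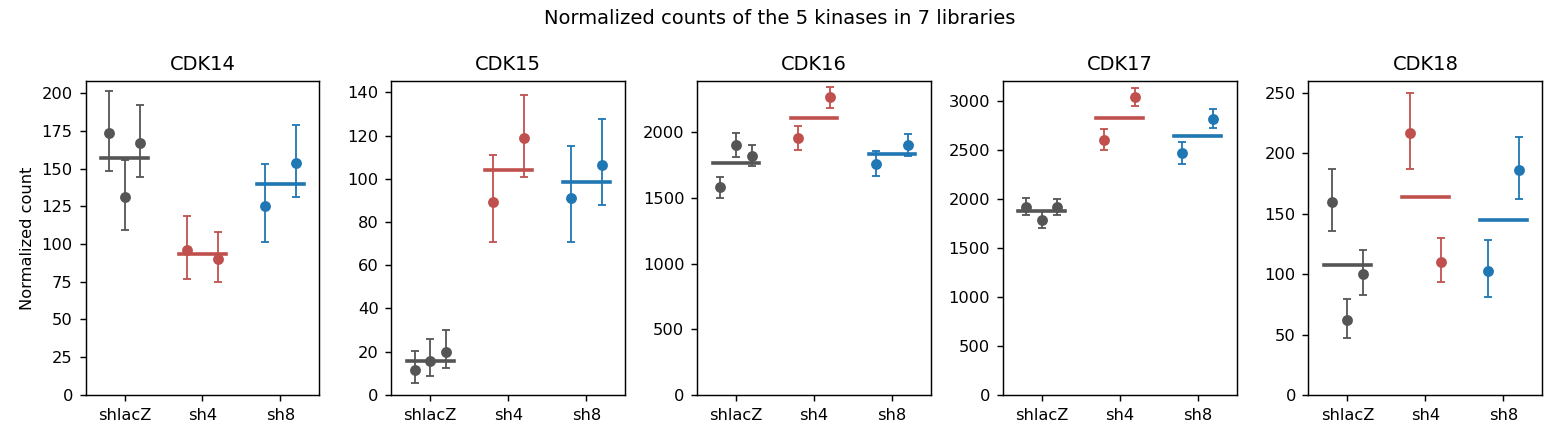
Normalized counts of the 5 kinases on linear axes that start at 0, with 1 point per library, its 95% exact Poisson interval (counting error only) and the group mean as a horizontal line. CDK15 stands at 11.4 to 20.0 in the control and at 89.2 to 119 under the hairpins, CDK17 stands at 1788 to 1922 and at 2465 to 3038, the groups of CDK18 overlap, and for CDK16 the sh8 libraries overlap the control while the sh4 libraries lie above it.

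CDK17, a PCTAIRE kinase mostly studied in the nervous system, was the relative that passed the test in the direction of CDK15. Its normalized count was 1922, 1788 and 1915 with shlacZ, 2605 and 3038 with sh4, and 2465 and 2819 with sh8. All 4 knockdown libraries lay above all 3 control libraries, a separation in this direction that 10.2% of all tested genes had. The mean was 1875 ± 75.3 (SD, n = 3) with shlacZ, 2822 ± 306 (SD, n = 2) with sh4 and 2642 ± 250 (SD, n = 2) with sh8, which is 50.5% and 40.9% above the control. In limma, the log2 difference of both hairpins together from the control was 0.54 (SE 0.11, adjusted p 0.0316).

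Of the 4 relatives tested, CDK17 alone passed in this pooled comparison, so 1 was higher and 0 lower, while 2.55% of all tested genes were higher and 2.06% lower at an adjusted p under 0.05. Under sh4 the difference of CDK17 was 0.59 (SE 0.12, adjusted p 0.00768). Under sh8 it was 0.49 (95% interval 0.22 to 0.76), and the adjusted p of 0.0622 missed the threshold. The difference between sh4 and sh8 was 0.09 (95% interval -0.20 to 0.39, adjusted p 0.742), so the hairpins were not shown to differ for this gene. The pooled call depended on the set of libraries. It was lost without the variance trend (adjusted p 0.0884), as were the pooled calls of CCNY, YWHAH, FZD7, CDK2, PMEL and GRASLND. It was also lost without either sh4 library (adjusted p 0.0740 and 0.0693), without the second sh8 library (0.0558) and without shlacZ replicate 2 or 3 (0.155 and 0.121), and under sh4 it was lost without the second sh4 library (0.0804). Without the first shlacZ library CDK17 passed under sh8 too (0.51, adjusted p 0.0316).

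CDK14, the PFTAIRE relative of CDK15 and a kinase of WNT signalling, moved the other way under sh4. Its normalized count was 173, 131 and 167 with shlacZ, 96.0 and 90.3 with sh4, and 125 and 154 with sh8. Both sh4 libraries lay below every other library, whereas the sh8 libraries overlapped the control. The share of all tested genes that separate so under sh4 is not given here, so this only describes the values. The mean was 157 ± 22.9 (SD, n = 3) with shlacZ, 93.2 ± 4.02 (SD, n = 2) with sh4 and 140 ± 20.2 (SD, n = 2) with sh8. The level fell by 0.74 on the log2 scale under sh4 (SE 0.21, adjusted p 0.0322 by limma), or to 0.593 of the control mean.

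With CDK14 lower and CDK17 higher, 1 of the 4 relatives passed in each direction under sh4, where 10.5% of all tested genes were higher and 11.9% lower. Under sh8 the log2 difference of CDK14 was -0.17 (95% interval -0.64 to 0.31, adjusted p 0.717). No relative passed there in limma or in limma-voom on recovered reads, and 1 (CDK17) had an unadjusted p under 0.05, with 1.38% of all tested genes higher and 1.54% lower. The difference of CDK14 between sh4 and sh8 was -0.57 (95% interval -1.09 to -0.05), and its adjusted p of 0.180 missed the threshold. In this direct comparison of the hairpins 0 of the 4 relatives passed, against 3.67% of tested genes higher and 3.33% lower under sh4, limma-voom on recovered reads also passed 0, and 1 (CDK14) had an unadjusted p under 0.05 (0.0338). The sh4 call of CDK14 was lost without either sh4 library (adjusted p 0.127 and 0.158) and without the third shlacZ library (0.103), and it was kept without the first (0.0426). Both hairpins together differed from the control by -0.45 (adjusted p 0.257).

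CDK16, the most studied PCTAIRE kinase, had 1580, 1900 and 1820 normalized counts with shlacZ, 1952 and 2264 with sh4, and 1761 and 1901 with sh8. The sh4 libraries lay above the control, a separation whose share over all tested genes is not given here, and the sh8 libraries overlapped it. Its log2 difference from the control was 0.26 under sh4 (95% interval -0.03 to 0.55, adjusted p 0.184) and 0.05 under sh8 (95% interval -0.23 to 0.34, adjusted p 0.863). No comparison of CDK16 passed the test.

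CDK18, the remaining PCTAIRE kinase, varied more between replicates than any other member. It had 160, 61.8 and 100 normalized counts with shlacZ, 217 and 110 with sh4, and 103 and 187 with sh8. The groups overlapped, and the coefficient of variation in the control was 46.1%, whereas counting alone would give 9.58%. The log2 difference from the control was 0.63 under sh4 (95% interval -0.32 to 1.58, adjusted p 0.321) and 0.47 under sh8 (95% interval -0.48 to 1.42, adjusted p 0.598). Single libraries moved these values, to between 0.15 and 1.11 under sh4 and between 0.04 and 0.90 under sh8 when 1 was left out. The extremes came without the first and the second library of the hairpin itself, and without the first shlacZ library the differences were 0.97 and 0.81 (adjusted p 0.0753 and 0.187). Without the second they were 0.29 and 0.13. The full-set intervals reach past 1 on the log2 scale, so neither a doubling nor the absence of a change of CDK18 could be shown with these libraries.

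**Figure D2:**
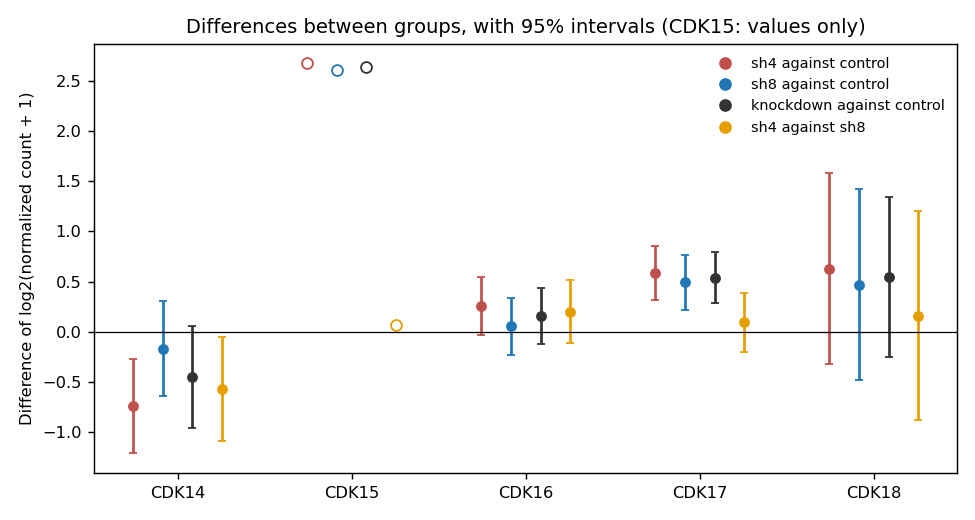
Differences of log2(normalized count + 1) for each kinase in 4 comparisons, with 95% intervals from limma for the 4 relatives and points without an interval for CDK15, which was not tested. CDK15 stands at 2.61 to 2.67 in the comparisons with the control, CDK17 at 0.49 to 0.59, and CDK14 at -0.74 under sh4 but -0.17 under sh8.

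Levels of different genes were compared per kilobase of merged exons. In the control the order from high to low was CDK17 with 290 ± 11.6 normalized counts per kilobase, CDK16 with 271 ± 25.5, CDK14 with 22.4 ± 3.26, CDK18 with 15.7 ± 7.25 and CDK15 with 2.54 ± 0.70 (SD, n = 3). CDK17 and CDK16 overlapped between libraries, as did CDK14 and CDK18, whereas CDK15 lay apart at the bottom in every control library. Per kilobase of the canonical transcript the order within both overlapping pairs turned, with CDK16 at 561 and CDK17 at 465, and CDK18 at 35.9 and CDK14 at 30.4, and CDK15 stayed last at 4.22. The family therefore consisted of a pair of abundant PCTAIRE kinases, a pair at a much lower level and CDK15 at the lowest level.

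In the knockdown libraries CDK15 stood at 14.5 and 19.2 normalized counts per kilobase under sh4 and at 14.7 and 17.3 under sh8. CDK14 stood at 13.7 and 12.9 under sh4 and at 17.8 and 21.9 under sh8. CDK18 stood at 31.7 and 16.2 under sh4 and at 15.1 and 27.3 under sh8. CDK15 was thus in the range of these relatives, lay above CDK14 in both sh4 libraries, and stayed far below CDK16 and CDK17, which had 269.6 or more in each of these libraries. Per kilobase of the canonical transcript it also lay above CDK14 in both sh4 libraries, while of the sh8 libraries replicate 1 had CDK15 at 24.5 and CDK14 at 24.2 and replicate 2 had 28.6 and 29.7, and CDK18 was higher than CDK15 in all 4. As a share of the summed level of the 5 genes, CDK15 held 0.312% to 0.526% in the control and 1.90% to 2.22% under the hairpins. The sum was 589 to 616 per kilobase in the control and 698 to 865 under the hairpins, and CDK17 held 46.3% to 50.4% of it in the control and 52.9% to 54.9% under the hairpins.

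**Figure D3:**
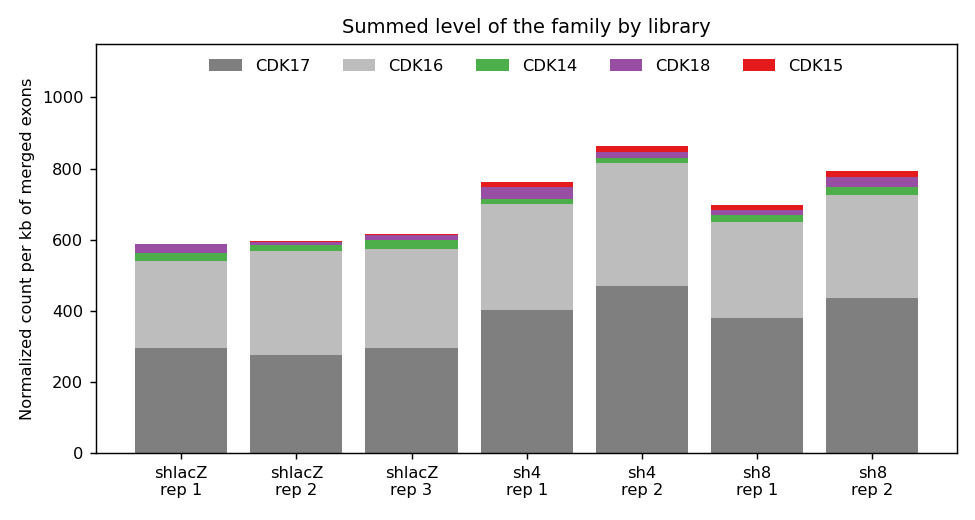
Summed level of the 5 kinases in each library, in normalized counts per kilobase of merged exons, stacked by gene. The bars reach 589 to 616 in the control and 698 to 865 under the hairpins, CDK17 and CDK16 fill most of each bar, and CDK15 holds 0.312% to 0.526% and 1.90% to 2.22%.

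The regulators of the family came next. Of 4 tested partners with a cyclin fold, CCNY passed as lower in the pooled comparison, where 2.06% of all tested genes did. Under sh4, 1 was higher and 1 lower, against 10.5% and 11.9% of all tested genes. Under sh8, 0 passed in either direction in limma or limma-voom, where limma had 1.38% of all tested genes higher and 1.54% lower. There 1 partner had an unadjusted p under 0.05 in limma. The median log2 difference of the 4 was 0.04 in the pooled comparison, where that of all tested genes was -0.01. CCNY, the activator of CDK14 and CDK16, had 722, 847 and 744 normalized counts with shlacZ, 489 and 496 with sh4, and 584 and 502 with sh8. All knockdown libraries lay below all control libraries, as for 11.0% of all tested genes. The level fell by 0.57 on the log2 scale for both hairpins together (SE 0.13, adjusted p 0.0377) and by 0.64 under sh4 (adjusted p 0.00938), and the difference under sh8 was -0.51 (95% interval -0.81 to -0.20, adjusted p 0.0857).

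The related cyclin CCNYL1, which can take the place of CCNY, differed by -0.18 in the pooled comparison (adjusted p 0.477). CDK5R2, an activator of CDK5 that was listed with these partners, had 16.5, 5.2 and 7.0 normalized counts in the control, 37.3 and 47.0 with sh4, and 15.8 and 14.6 with sh8. Its rise under sh4 was 2.17 (log2 scale, adjusted p 0.0122) from this low level, and the sh8 libraries lay within the control range. The pooled CCNY call was lost without either sh4 library (adjusted p 0.103 and 0.0766), without the second sh8 library (0.0642) and without shlacZ replicate 2 or 3 (0.183 and 0.129). Under sh4 the calls of CCNY (0.0663 and 0.0621) and CDK5R2 (0.0684 and 0.104) were lost without the first or the second sh4 library.

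Of 6 tested 14-3-3 proteins, adaptors that bind phosphorylated partners, YWHAH (14-3-3 eta) was the one that passed. It was higher in all 3 comparisons with the control. Of all tested genes, 2.55% passed as higher in the pooled comparison, 10.5% under sh4 and 1.38% under sh8. Its normalized count was 2169, 3575 and 3847 with shlacZ, 5192 and 7054 with sh4, and 6170 and 6994 with sh8. No knockdown library overlapped the control, a separation in this direction that 10.2% of all tested genes had. Both hairpins together differed from the control by 1.02 on the log2 scale (SE 0.20, adjusted p 0.0265), sh4 alone by 0.96 (adjusted p 0.0153) and sh8 alone by 1.08 (adjusted p 0.0377). The first shlacZ library was the lowest, and without it the pooled difference was 0.77 and still passed (adjusted p 0.0395). The median of the 6 proteins was -0.08 in the pooled comparison. Among the calls that were lost, the one under sh4 was lost without the second sh4 library (0.144), the pooled one without the second sh4 library (0.0543) and shlacZ replicate 2 or 3 (0.0901 and 0.0541), and the one under sh8 without any 1 of the 4 knockdown libraries (0.0590 to 0.261) or the second shlacZ library (0.0667).

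Downstream of CDK14 lies the WNT receptor complex, in which ligands bind a Frizzled receptor and LRP6. Of 31 tested genes of this list, 1 was higher and 0 lower in the pooled comparison (all tested genes: 2.55% and 2.06%), 5 higher and 5 lower under sh4 (all: 10.5% and 11.9%), and 0 higher and 2 lower under sh8 (all: 1.38% and 1.54%). The median log2 differences were -0.08, 0.11 and -0.10, beside -0.01 for all tested genes in each comparison. LRP6, the substrate of CDK14, had 1765 to 1875 normalized counts in the control, 1726 and 1752 with sh4, and 1840 and 2003 with sh8. Its pooled log2 difference was -0.01 (95% interval -0.25 to 0.23, adjusted p 0.977).

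FZD7, a Frizzled receptor, was the WNT receptor gene that passed in the pooled comparison. It had 663, 831 and 845 normalized counts with shlacZ, 1518 and 1773 with sh4, and 998 and 1392 with sh8. It rose by 0.84 for both hairpins together (SE 0.19, adjusted p 0.0383) and by 1.08 under sh4 (adjusted p 0.00233), and the difference under sh8 was 0.60 (95% interval 0.22 to 0.99, adjusted p 0.0972). The pooled call was lost in 6 of the 7 fits with 1 library left out (highest adjusted p 0.138), and it was kept without the first sh8 library (0.00947). Without the first shlacZ library, the lowest for this gene, the pooled adjusted p was 0.0745, whereas the sh4 call was kept in all 7.

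Under sh4, AXIN2 and ZNRF3, a pair of negative regulators that are themselves induced by WNT signalling, rose by 1.27 (adjusted p 0.000592) and 0.93 (adjusted p 0.00231). FZD5 fell by 0.67 (adjusted p 0.00477) and the adaptor DVL2 fell by 0.79 (adjusted p 0.00620). FZD6 moved in opposite directions, with 267 to 306 normalized counts in the control, 454 and 460 with sh4, and 131 and 137 with sh8. The groups did not overlap, and the log2 difference from the control was 0.69 for sh4 (adjusted p 0.0109) but -1.08 for sh8 (adjusted p 0.00725). The share of all tested genes that separate so under each hairpin is not given here, so this only describes the values. RNF43, of the same list, also moved in opposite directions. Its log2 difference from the control was 0.55 for sh4 (adjusted p 0.0276) and -0.77 for sh8 (adjusted p 0.0274). How the RNF43 calls depend on single libraries is not given here. Leaving out the first or the second sh4 library ended the sh4 call of FZD6 (0.0758 and 0.0808), leaving out the first or the second sh8 library ended its sh8 call (0.0698 and 0.0708), and DVL2 was lost without the second sh4 library (0.0691).

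For the survivin arm, BIRC5, the described substrate of CDK15, had 942, 1419 and 1274 normalized counts with shlacZ, 743 and 1175 with sh4, and 1032 and 1119 with sh8. The groups overlapped, and the pooled log2 difference was -0.25 (95% interval -0.68 to 0.17, adjusted p 0.447). The survivin and TRAIL pathway leads from death receptors to caspases. Of its 11 tested genes, 0 passed in the pooled comparison, where 2.55% of all tested genes were higher and 2.06% lower. Under sh4, 4 were higher and 0 lower, where 10.5% of all tested genes were higher and 11.9% lower. Under sh8, 0 passed, where 1.38% of all tested genes were higher and 1.54% lower. At an unadjusted p under 0.05, limma had 2 of the 11 in the pooled comparison and 0 under sh8, and limma-voom on recovered reads passed 0 in both. The median log2 difference was 0.33 under sh4 and -0.13 under sh8, beside -0.01 for all tested genes in each.

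The caspase inhibitor XIAP rose by 0.62 (adjusted p 0.00697), the initiator caspases CASP9 and CASP8 rose by 0.87 (adjusted p 0.00836) and 0.66 (adjusted p 0.0156), and CFLAR, an inhibitor of CASP8, rose by 0.70 (adjusted p 0.00876), all under sh4. The members that rose thus include both inhibitors and initiators of apoptosis. Without the first sh4 library CASP9 (0.0899), CFLAR (0.0784) and CASP8 (0.0502) were lost, and without the second sh4 library XIAP (0.0748), CFLAR (0.0522) and CASP8 (0.133) were lost. CASP8 was also lost without shlacZ replicate 2 or 3 (0.0555 and 0.0518).

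Of 15 other cyclin-dependent kinases that were tested, 0 were higher and 1 lower in the pooled comparison, against 2.55% and 2.06% of all tested genes, and 0 higher and 4 lower under sh4, against 10.5% and 11.9%. Under sh8, 1 was higher and 1 lower, against 1.38% and 1.54%, with medians over the 3 comparisons of -0.12, -0.11 and -0.13. CDK2, a kinase of the start of S phase, had 14681, 13195 and 12973 normalized counts with shlacZ, 7297 and 6363 with sh4, and 8640 and 8670 with sh8. It fell in all 3 comparisons, by 0.82 for both hairpins together (adjusted p 0.0169), and with an adjusted p of 0.000485 under sh4 and 0.0191 under sh8. Its whole span lies within that of the melanocytic gene PMEL on the opposite strand, and the counting is not stated to use strand. Reads of this pair may therefore not be told apart where exons overlap, but the exonic bases that they share were not measured. PMEL fell too, by 0.91 in the pooled comparison (adjusted p 0.0443).

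CDK6, a kinase of the passage through G1, fell by 0.55 under sh4 (adjusted p 0.0109) and rose by 0.80 under sh8 (adjusted p 0.00954). CDK1 and CDK4 fell under sh4 by 0.68 (adjusted p 0.00416) and 0.70 (adjusted p 0.0401). Without shlacZ replicate 2 or 3 the pooled CDK2 call (0.0860 and 0.0662) and its sh8 call (0.0621 and 0.0545) were lost, and the sh8 call was also lost without the first or second sh8 library (0.137 and 0.160). The sh4 call of CDK6 was lost without the first or the second sh4 library (0.0623 and 0.0764), and its sh8 call without the first or the second sh8 library (0.0962 and 0.0864). CDK4 passed in 1 of 7 such fits, the one without the first shlacZ library (highest adjusted p 0.242).

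Melanocytic markers shifted in the same libraries. Of 7, 0 were higher and 1 lower in the pooled comparison, against 2.55% and 2.06% of all tested genes. Under sh4, 0 were higher and 6 lower, against 10.5% and 11.9%. Under sh8, 0 passed in limma or limma-voom, where limma had 1.38% of all tested genes higher and 1.54% lower. There 5 had an unadjusted p under 0.05 in limma, a threshold whose share over all tested genes is not given here. The median log2 differences were -0.91, -1.27 and -0.50, beside -0.01 for all tested genes in each comparison. The 6 genes that fell under sh4 were TYRP1, DCT, PMEL, MLANA, SOX10 and MITF, with log2 differences of -3.31 (DCT) to -0.71 (MITF), and without the second sh4 library MITF missed the threshold (adjusted p 0.0567). TYR had 8192 to 9420 normalized counts in the control and 9183 to 11314 under the hairpins. The pooled call, PMEL, passed in 2 of 7 fits with 1 library left out (highest adjusted p 0.186) and missed the threshold with quantile normalization (0.0671). For CDK14, whose lowest libraries were those of sh4, and for the calls made under sh4 alone, the part of this shift in the result was not tested.

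The surroundings of CDK15 were described next, since neighbouring genes can share a regulatory region. Of 9 protein-coding genes within 500 kb that are reported here, 5 were tested, of which 1 was higher and 0 lower in the pooled comparison, against 2.55% and 2.06% of all tested genes. Under sh4, 1 was higher and 1 lower (all tested genes: 10.5% and 11.9%). Under sh8, 0 passed in limma (all tested genes: 1.38% and 1.54%) or limma-voom, and 1 had an unadjusted p under 0.05 in limma. The median log2 difference of the 5 was -0.06 in the pooled comparison. The gene that rose was FZD7, which begins 138305 bases after the end of CDK15 on the same strand, at chr2:202033855-202038441. Its pooled rise of 0.84 on the log2 scale compares with 2.64 for CDK15, and the calls of FZD7 depend on single libraries as given above for the WNT receptors.

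STRADB, a pseudokinase partner of the kinase LKB1 that lies 309615 bases before CDK15, fell by 0.74 under sh4 (adjusted p 0.00296), and its sh8 difference was -0.11 (adjusted p 0.671). TRAK2, TMEM237 and NOP58 had pooled differences of -0.35 to -0.02, with adjusted p of 0.249 to 0.934. C2CD6 and MPP4 lay under the minimum mean, and KIAA2012 and ENSG00000289490 were not analysed here.

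**Figure D4:**
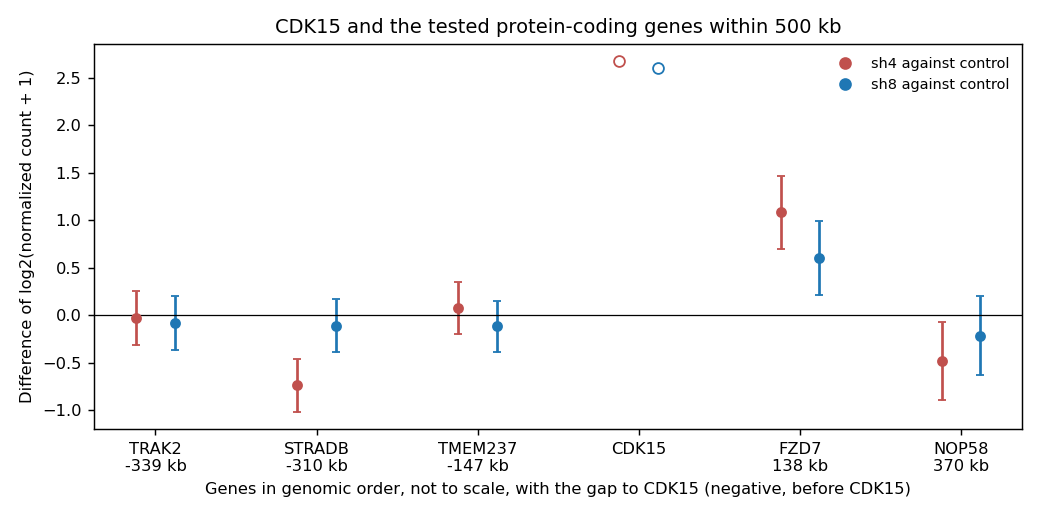
Differences of log2(normalized count + 1) from the control under sh4 and sh8 for CDK15 (open points, not tested) and the 5 tested protein-coding genes reported around it in genomic order, with 95% intervals from limma. CDK15 stands at 2.67 and 2.61, FZD7 at 1.08 and 0.60 and STRADB at -0.74 and -0.11, with the gap to CDK15 given under each name.

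Genes with a profile like that of CDK15 were ranked by the root mean square difference, over the 7 libraries, between their log2(normalized count + 1) less its control mean and that of CDK15. Among 15419 genes the nearest were RUNX2 (0.335), the lncRNA ENSG00000271857 (0.336), CADPS (0.489), ABCD2 (0.507) and MTHFD2P1 (0.507). RUNX2, a transcription factor of bone formation, had 130, 215 and 178 normalized counts with shlacZ, 770 and 867 with sh4, and 799 and 865 with sh8. Like CDK15, it was at one level under both hairpins, with log2 differences from the control of 2.25 and 2.28. ENSG00000271857, at chr6:45421079-45422005 on the minus strand, lies inside RUNX2 at chr6:45328157-45664349 on the plus strand, so the first pair of the ranking is 1 locus. Its reads may not be told apart where exons overlap, but the exonic bases that the pair shares were not measured.

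CADPS, a protein of secretory vesicle release, had a mean of 174 normalized counts with shlacZ, 1615 with sh4 and 674 with sh8. ABCD2, a peroxisomal transporter of very long chain fatty acids, had means of 4.92, 46.1 and 20.1, and the pseudogene MTHFD2P1 had means of 157, 612 and 640. Both CADPS and ABCD2 had a higher mean under sh4 than under sh8, so of the protein-coding genes among the 5, RUNX2 was the one at about equal levels. RUNX2 was also first with a minimum mean of 50 and with a pseudocount of 10, while 3 and 2 of the 5 genes were kept in these rankings. The relatives were farther away, with CDK17 at rank 1489, CDK18 at 2264, CDK16 at 4655 and CDK14 at 13498. This ranking used the values by which CDK15 was chosen and is a description without a test.

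**Figure D5:**
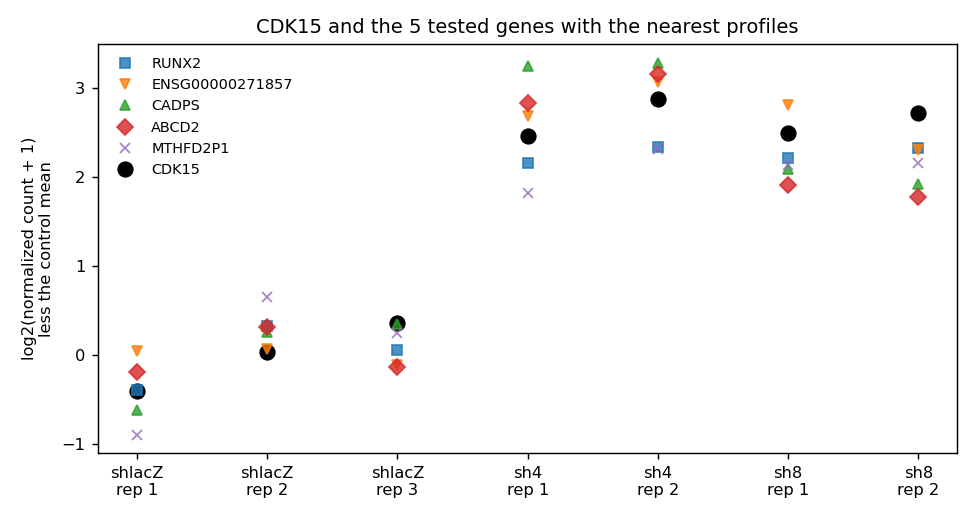
log2(normalized count + 1) less the control mean in each of the 7 libraries for CDK15 (black circles) and the 5 tested genes with the smallest root mean square difference from it. The RUNX2 points follow those of CDK15 at a root mean square difference of 0.335, whereas CADPS and ABCD2 stand higher under sh4 than under sh8.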

How the data were processed

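The authors trimmed adapters with Cutadapt, aligned read pairs of ribosome-depleted, stranded libraries to hg38 with STAR, quantified genes with Salmon and analysed the counts with DESeq2, and versions and annotation release are not given in the sources used here. The deposited table holds normalized counts, that is, counts divided by 1 size factor per library, which scales away a change shared by most transcripts. Of its values, 100% were whole multiples of 1 read (tolerance 0.01 reads), so whole reads were recovered for depth, for Poisson intervals (95%, counting error only) and for limma-voom. No gene had fewer than 10 reads in all, and 0 columns belonged to other samples.

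Genes whose mean reached 10, 15420 in all, were tested with limma 3.58.1 under R 4.3.3. The response was log2(normalized count + 1), the variance was moderated with a trend, and p-values were adjusted over all of them by Benjamini-Hochberg. A gene passed at an adjusted p under 0.05. Counts of genes at an unadjusted p under 0.05 are given without the share over all tested genes, so they only describe the lists. Both hairpins were compared with shlacZ in a fit of 2 levels, and single hairpins in a fit of 3 groups that shared 1 estimate of the spread. The fit was tested on simulated counts with the same dispersion for every gene and no difference between the hairpins. That simulation does not measure its error rate in these libraries. The members and gene lists were chosen with earlier results of these data known, and the lists were written from general knowledge. Named were the 5 kinases, GRASLND, the genes of each list that passed in a comparison with the control (at most the 6 with the smallest adjusted p), CCNY, CCNYL1, LRP6, BIRC5, the protein-coding genes within 500 kb of CDK15 and the 5 genes with the nearest profile. RNF43 is given beside FZD6 outside this rule. Gene locations, lengths and sequences came from GENCODE release 44 on hg38, which held 21281 of the 21305 identifiers. No protein sequence was used here, and a few genes of the lists and of the surroundings of CDK15 are not reported here. Alternatives covered the pseudocount, the minimum mean, both quantile and trimmed-mean (TMM, unweighted) scaling, the variance trend, voom, the libraries in the fit, the replicate number as a block and leaving out each library. Genes that share reads with close copies may have been split differently by Salmon.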

Additional observations from a re-analysis of the deposited data

Results flagged for a closer look

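For 12 named genes the effects of sh4 and sh8 differed by the limma test of sh4 against sh8. None of the 4 tested relatives of CDK15 is among them. In this test 3.67% of all tested genes were higher and 3.33% lower under sh4. Most named genes of the lists had been picked for passing against the control, many under sh4 alone, a choice that favours such differences. RNF43, given above beside FZD6 and outside this count, differed by 1.33 (adjusted p 0.00256). Of the WNT list, the log2 difference of sh4 from sh8 was 1.77 for FZD6 (adjusted p 0.00113) and 0.90 for AXIN2 (adjusted p 0.0135). Of the survivin and TRAIL list, XIAP was higher under sh4 by 0.85 (adjusted p 0.00671) and CASP9 by 1.002 (adjusted p 0.0170). CDK6 differed by -1.35 (adjusted p 0.00113) and the CDK15 neighbour STRADB by -0.62 (adjusted p 0.0247). The melanocytic markers TYRP1 (-1.54, adjusted p 0.00182), DCT (-2.30, adjusted p 0.00231), PMEL (-0.71, adjusted p 0.0222), MLANA (-1.01, adjusted p 0.0142), SOX10 (-0.81, adjusted p 0.02) and MITF (-0.59, adjusted p 0.0415) were lower under sh4 too. With 1 library left out at a time, the differences of FZD6, CDK6, TYRP1 and DCT passed in 7 of 7, those of AXIN2, XIAP, PMEL, MLANA and SOX10 in 4, those of CASP9 and STRADB in 3 and that of MITF in 2. Without the variance trend 6 of the 12 missed the threshold, namely AXIN2 (adjusted p 0.0687), PMEL (0.0782), MLANA (0.0757), SOX10 (0.0871), MITF (0.116) and STRADB (0.0893), and MITF also did with quantile normalization (0.0936). No cause of these differences was tested. In none of the 5 kinases did a library of the 4 knockdown libraries lie apart by Dixon's criterion, where the highest ratio of gap to range was 0.622 (CDK16).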

How the results depend on the processing

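The direction of the CDK17 and CDK14 differences from the control held in all alternatives, as did that of CDK15, whose pooled difference moved to 2.12 with a pseudocount of 10, with 2.15 under sh4 and 2.09 under sh8. The number of relatives that passed in the pooled comparison (1) was 0 without the variance trend and 0 to 1 without single libraries. Under sh4 (2) it was 0 to 2 without single libraries. Under sh8 (0) it was 1 with quantile normalization and 0 to 1 without single libraries, and for sh4 against sh8 it was 0 throughout. CDK16 passed under sh4 with quantile normalization (adjusted p 0.0397). Over all genes, 711 passed in the pooled comparison, 2534 by the mean of both hairpins in the fit of 3 groups, 138 without the variance trend and 64 to 1144 without single libraries. Under sh4, 3464 passed, and 1413 to 4865 without single libraries. Under sh8, 451 passed, 59 without the variance trend, 299 with the groups compared alone and 53 to 1600 without single libraries. For sh4 against sh8, 1079 passed, 476 without the variance trend and 144 to 1975 without single libraries. Signs turned without single libraries for CDK16 under sh8 (-0.0233 to 0.110) and for sh4 against sh8 in CDK17 (-0.0167 to 0.205) and CDK18 (-0.32 to 0.64), none of which had passed. The CDK15 difference between the hairpins also turned, with -0.14 to 0.27 without single libraries and -0.03 with quantile normalization. Without the variance trend, pooled calls were lost for CDK17 (adjusted p 0.0884), CCNY (0.0814), YWHAH (0.0800), FZD7 (0.100), CDK2 (0.0582), PMEL (0.104) and GRASLND (0.0805). This setting also ended sh4 calls for YWHAH (0.0659) and CDK4 (0.113), and sh8 calls for YWHAH (0.157), CDK2 (0.101) and CDK6 (0.0778). For sh4 against sh8 it ended 6 calls (AXIN2, PMEL, MLANA, SOX10, MITF and STRADB, 0.0687 to 0.116). Quantile normalization ended the pooled call of PMEL (0.0671) and that of MITF for sh4 against sh8 (0.0936). Fitting the groups compared alone ended the sh8 call of YWHAH (0.0595) and the sh4 call of CDK4 (0.0571). Where a library was left out of a group of 2, the remaining one was assumed to vary like the other groups. Levels per kilobase of the canonical transcript are given in the report. The cause of the other shifts was not tested.

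The labels do not state that replicate numbers pair the samples, and the main fits did not use them as pairs. The correlation of deviations between same-numbered libraries was 0.31 for shlacZ and sh4, 0.034 for shlacZ and sh8 and 0.034 for sh4 and sh8. With the replicate number as a block, 42 genes and 0 relatives passed in the pooled comparison (CDK17 0.55, adjusted p 0.150). Under sh4, 1 relative passed, and CDK14 had an adjusted p of 0.0712. Over all genes, 3376 passed under sh4 with the block, against 3464 in the main fit. More genes than in the main fit passed under sh8 (574 against 451) and for sh4 against sh8 (1467 against 1079). The block also ended the pooled calls of CCNY (0.173), FZD7 (0.127), CDK2 (0.109), PMEL (0.204) and GRASLND (0.150).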
